A study of Mus musculus with 18 samples.

Results

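Fatty acid oxidation is the main source of energy of the working heart, and 32 genes of this pathway and of its control were followed in heart RNA. They were chosen by their known roles: activation and carnitine transport of fatty acids, the steps of mitochondrial beta-oxidation, the steps for unsaturated fatty acids, 2 peroxisomal enzymes, thioesterases, the electron carriers of the acyl-CoA dehydrogenases, and 4 regulators or carriers. Earlier results of these data were known when these genes and the further lists below were chosen. Shares set beside those of all genes are therefore descriptive. All 32 were among the 14623 genes with enough counts to be tested, of 35560 genes shared by the deposited tables. The hearts were those of male wild-type C57BL/6 mice. Every mouse had daily subcutaneous isoproterenol (ISO), which stimulates beta-adrenergic receptors and strains the heart, for 21 days at a dose of 2.5 mg/kg/day. The ISO group had water by gavage, and the ISO+100 nm PS and ISO+1 µm PS groups had polystyrene particles (labelled PS-NPs) of that size by gavage at 50 mg/kg/day over the same 21 days, with 6 mice in each group. The labels give no age. Every comparison is therefore between hearts of ISO-treated mice, and hearts without ISO were not analysed here.

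In beta-oxidation, a fatty acid is first joined to coenzyme A and passed to carnitine to cross the mitochondrial membranes. Inside, repeated rounds of dehydrogenation, hydration, dehydrogenation and thiolysis cut it into acetyl-CoA, and the electrons of the acyl-CoA dehydrogenases pass through the electron transfer flavoprotein to the respiratory chain. The nuclear receptor PPAR alpha (Ppara) and the coactivator PGC-1 alpha (Ppargc1a) are known to drive many of these genes in heart, and stressed hearts are known to lower the pathway.

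A first sequencing provider (batch 1) handled 3 ISO, 5 ISO+100 nm PS and 4 ISO+1 µm PS libraries, and another provider (batch 2) handled 3, 1 and 2. Each batch has its own count table, so batch stands for provider and for table, which cannot be told apart. Total counts were 14032257 to 22600570 per library. All 10 cardiac myocyte markers were present, summing to 31491 to 123320 CPM (counts relative to the library's total after TMM scaling). The medians were 79236 in ISO, 51557 in ISO+100 nm PS and 53939 in ISO+1 µm PS. These medians pool batches that hold the groups in unlike numbers. In batch 1 the sums were 31491, 74734 and 52234 CPM in ISO and 41167 to 56276 CPM in PS. In batch 2 they were 88517, 100228 and 83737 CPM in ISO and 91719, 123320 and 88043 CPM in PS. The groups overlapped in each batch. Several libraries stood apart. ISO replicate 1 (batch 1) had 42.64% of its counts in mitochondrially encoded protein genes, against 13.26% to 31.08% in the others. ISO replicate 2 (batch 1) had 13152 genes detected against 16562 to 18755, and ISO+1 µm PS replicate 5 (batch 2) had the highest member levels of its batch. The correlation of a gene's GC content with its deviation from the batch mean was -0.606 to 0.008 in ISO and 0.124 to 0.369 in PS libraries, so base composition moved with the groups, and its part in the results was not tested beyond the GC-corrected values given below. In bulk RNA, fewer cells of a type and less RNA per cell cannot be told apart. The summed CPM of 10 fibroblast markers was 883 to 1928 in ISO, 1398 to 3034 in ISO+100 nm PS and 1298 to 2671 in ISO+1 µm PS. That of 10 endothelial markers was 1033 to 2519, 2128 to 3239 and 2211 to 3214. The 7 brown adipocyte markers summed to 190 to 2545, 367 to 1013 and 434 to 923, and the 11 skeletal muscle markers to 103 to 473, 187 to 760 and 181 to 1312. The 6 atrial markers summed to 105 to 923, 333 to 3591 and 241 to 933, the highest being ISO+100 nm PS replicate 1. The medians were 490, 664 and 457. Of the single markers, Bmp10 of the atrial list was at 0 in ISO, and Myh4 of the skeletal muscle list was at 0 in ISO+100 nm PS. The part of these cell types in the results was not tested.

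Cpt1b, Mlycd and Ppara had levels so far apart between the tables that their counts are shown first. Cpt1b, the muscle form of carnitine palmitoyltransferase of the outer membrane, had 0 to 15 counts in batch 1 and 6413 to 16817 counts in batch 2. Of the 100-base windows of its longest transcript, 91.1% also occur in Gm44502, a gene annotated across Cpt1b, and the neighbouring gene Chkb went the same way, with 0 to 4 counts in batch 1 and 474 to 694 in batch 2. Mlycd, malonyl-CoA decarboxylase, which removes the inhibitor of carnitine palmitoyltransferase, was 10.2 times higher in batch 2, and ISO replicate 2 had 0 counts of it. Ppara went the other way, with 15.0 to 70.9 CPM in batch 1 and 2.25 to 5.02 CPM in 5 libraries of batch 2, the exception being ISO+1 µm PS replicate 5 at 25.2 CPM. Mean CPM was over 4 times apart between batches for these 3 members and for 5.2% of all genes tested. For Etfb, 65.2% of the windows are shared with Gm45233, for Acot1 and Acot2 12.5% and 17.1% are shared with each other or with Acot5, for Acaa1a 9.8% with Acaa1b and for Acad10 8.0% with Acad12, so their counts are less certain.

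**Figure D1:**
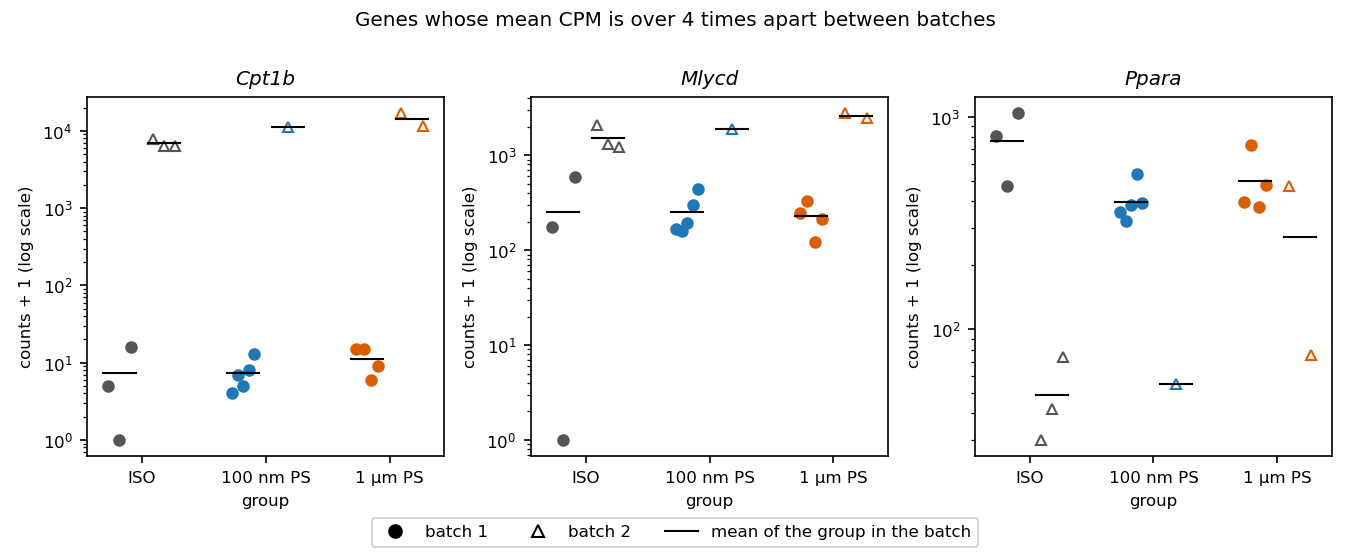
Counts plus 1 on a log scale for Cpt1b, Mlycd and Ppara in each library (circles: batch 1, triangles: batch 2, lines: mean of the group in the batch). Cpt1b had at most 15 counts in batch 1 and at least 6413 in batch 2, and Ppara was lower in all libraries of batch 2 except ISO+1 µm PS replicate 5, which lay within the range of batch 1.

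In ISO hearts of batch 2, Ech1, Etfb, Acaa2 and Acadvl had the highest levels per transcript length, with means of 1365, 1315, 700.0 and 578 CPM per kb. The length is that of the longest annotated transcript of a gene, so the ranking depends on the annotation. Acaa2 and Hadhb, with means of 1062 and 1033 CPM, came to 700.0 and 235 CPM per kb over 1516 and 4388 bases. Acadvl, the dehydrogenase of very long chains, was followed by Acot13 at 475, Acadl at 405, Etfa at 338 and Acadm at 326 CPM per kb. The carrier Ucp3 and the coactivator Ppargc1a, at 6.43 and 6.07 CPM per kb, and the peroxisomal enzyme Ehhadh, at 3.35 CPM per kb, were near the bottom. Cpt1b, at 177 CPM per kb, was far above Cpt1a, the liver form, at 8.24 CPM per kb.

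In the fit over both batches most members had lower values with particles than with ISO alone, and 3 of the 32 passed at 100 nm. These were Decr1, the reductase of 2,4-dienoyl-CoA from unsaturated fatty acids, Acot13, a thioesterase bound to mitochondria, and Etfa, the alpha subunit of the electron transfer flavoprotein. The test was edgeR's quasi-likelihood test with batch as a term and Benjamini-Hochberg adjustment over all 14623 genes (called at an adjusted p under 0.05). At 100 nm 5.69% of all genes were called lower and 31 of 32 members had a negative log2 fold change, with a median of -0.55 for the members and -0.02 for all genes. At 1 µm 2 members passed, Decr1 and Acot13, both lower, where 4.5% of all genes were called lower, and 27 of 32 members were negative, with a median of -0.26 against -0.00 for all genes. Both comparisons use the same ISO libraries. With both PS groups set against ISO, 8 members were called, all lower, where 10.9% of all genes were: Acaa2, Decr1, Ech1, Ehhadh, Acot13, Etfa, Ppargc1a and Ucp3. Without Cpt1b, Mlycd and Ppara the median of the other 29 was -0.55 at 100 nm and -0.40 at 1 µm.

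Decr1 fell in both comparisons. In batch 1 it stood at 351, 680 and 412 CPM in ISO, at 183, 160, 214, 209 and 292 CPM in ISO+100 nm PS and at 185, 231, 170 and 230 CPM in ISO+1 µm PS, so every PS library was below every ISO library. In batch 2 it was at 503, 263 and 300 CPM in ISO, at 243 CPM at 100 nm and at 267 and 288 CPM at 1 µm, where the groups overlapped. The log2 fold change was -0.94 (SE 0.23, adjusted p = 0.022, edgeR) at 100 nm and -0.87 (SE 0.23, adjusted p = 0.0299) at 1 µm. All 12 PS libraries lay below the ISO mean of their batch. The call for both PS groups (-0.90, SE 0.19, adjusted p = 0.00576) passed in all 18 fits that left out 1 library. The call at 100 nm was lost without ISO+100 nm PS replicate 1, 2 or 6 (adjusted p up to 0.0593) and that at 1 µm without ISO replicate 4 or ISO+1 µm PS replicate 1, 2, 3 or 4 (up to 0.0749). After a correction for GC content the value for both PS groups was -0.71 (adjusted p = 0.0563). The calls at a single size did not pass either, with -0.67 (adjusted p = 0.194, edgeR) at 1 µm.

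Acot13 fell as well. In batch 2 it stood at 414, 315 and 299 CPM in ISO, at 141 CPM at 100 nm and at 124 and 155 CPM at 1 µm, with no overlap. In batch 1 it was at 237, 692 and 188 CPM in ISO, 187 to 251 CPM (median 221) at 100 nm and 202, 219, 250 and 253 CPM at 1 µm, so there only ISO replicate 2 was above all PS libraries. The log2 fold change was -0.97 (SE 0.27, adjusted p = 0.0328, edgeR) at 100 nm and -0.95 (SE 0.26, adjusted p = 0.0351) at 1 µm. Without ISO replicate 2 the calls were lost, at -0.62 (adjusted p = 0.0965) and -0.64 (adjusted p = 0.0765). The call at 100 nm was lost as well without ISO replicate 4 or any ISO+100 nm PS library, and that at 1 µm without ISO replicate 4 or 6, ISO+100 nm PS replicate 6 or any ISO+1 µm PS library. For both PS groups the value was -0.96 (SE 0.22, adjusted p = 0.00922), past the threshold in all 18 fits that left out 1 library, and -0.93 (adjusted p = 0.0306) after GC correction. The calls at a single size did not pass after that correction, with -0.93 (adjusted p = 0.132, edgeR) at 1 µm. Every PS library of either batch was below the ISO mean of its batch. In batch 2 fat cell markers were lower in PS as well. The summed CPM of 8 adipocyte markers was 1272, 604 and 608 in ISO and 271, 157 and 420 in PS there. That of the brown adipocyte markers was 2502, 2545 and 1526 in ISO and 1013, 882 and 923 in PS. In batch 1 both sums were highest in ISO replicate 2, at 2533 and 2385 CPM, the library with the most Acot13. ISO replicates 1 and 3 had 308 and 563 CPM of the adipocyte markers and 190 and 387 CPM of the brown adipocyte markers. The PS libraries of batch 1 had 506 to 1086 CPM and 367 to 582 CPM, so outside ISO replicate 2 these sums were not higher in ISO. The part of these cells in the result was not tested.

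Etfa stood at 414, 478 and 636 CPM in ISO of batch 1 and at 513, 314 and 586 CPM in ISO of batch 2. It was at 288, 274, 322, 408 and 413 CPM in ISO+100 nm PS of batch 1, at 364, 435, 268 and 372 CPM in ISO+1 µm PS of batch 1, and at 283, 334 and 306 CPM in the PS libraries of batch 2. The highest PS libraries overlapped the lowest ISO libraries in both batches. The log2 fold change was -0.62 at 100 nm (SE 0.19, adjusted p = 0.049, edgeR) and -0.53 at 1 µm (SE 0.19, adjusted p = 0.0804), and each batch alone gave -0.58 and -0.73 at 100 nm. The call at 100 nm was lost in 13 of the 18 fits that left out 1 library, while the call for both PS groups (-0.58, adjusted p = 0.0217) was lost in 1, without ISO replicate 3 (adjusted p = 0.0543). After GC correction no call of Etfa passed, with -0.43 (adjusted p = 0.222) at 100 nm, -0.34 (adjusted p = 0.381) at 1 µm and -0.38 (adjusted p = 0.167) for both. Its partner Etfb ranged from 264 to 1746 CPM in ISO and was not called. Etfdh, which passes the electrons to ubiquinone, is described with batch 1 below.

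**Figure D2:**
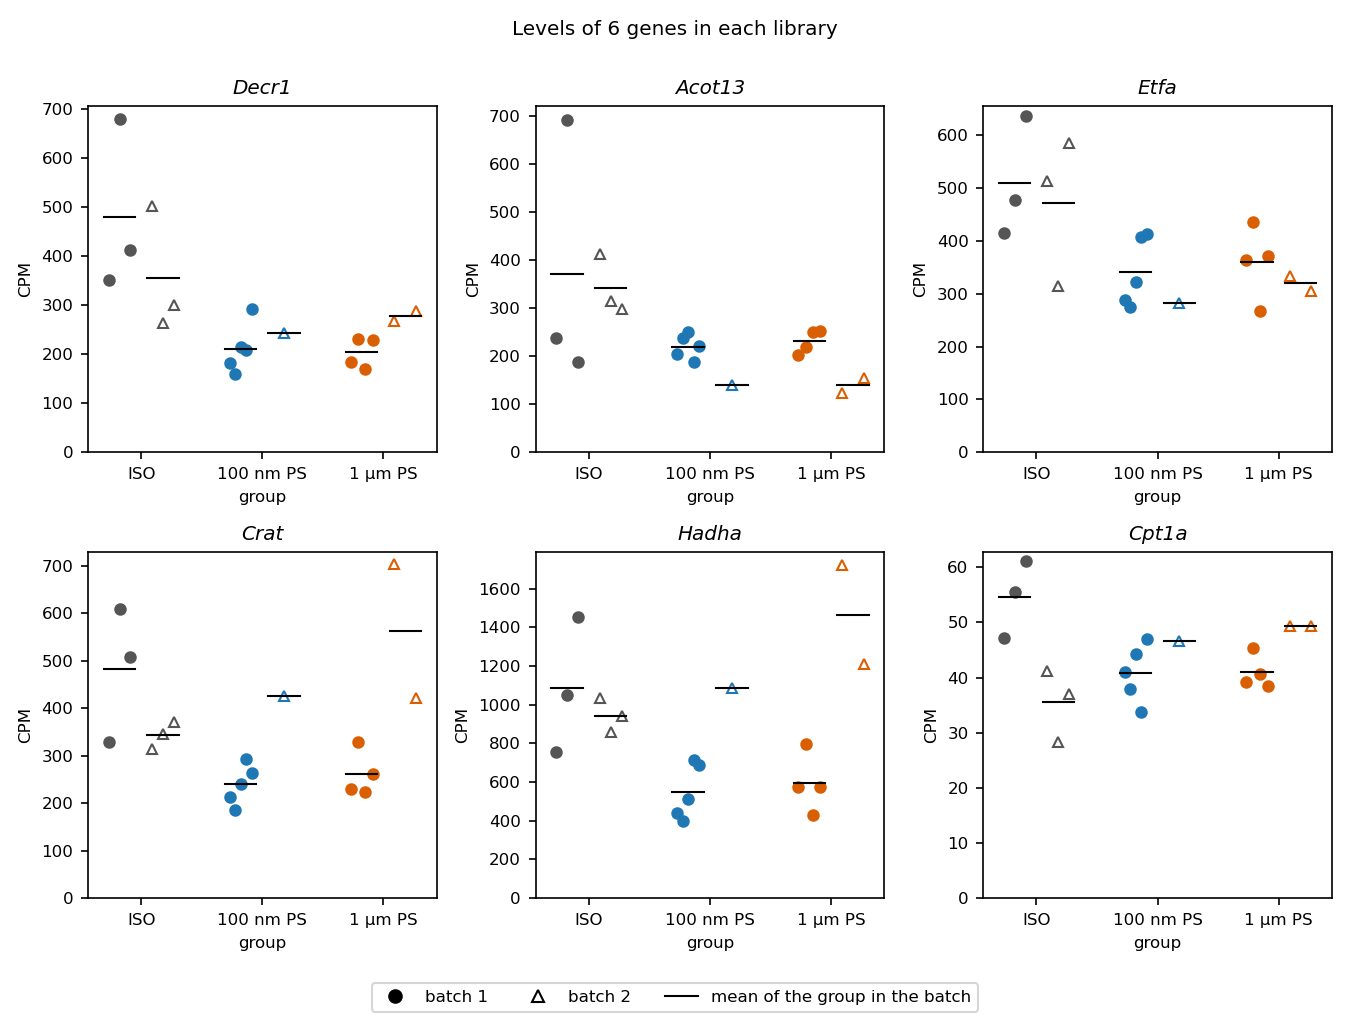
CPM of 6 genes in each library, by group (circles: batch 1, triangles: batch 2, lines: mean of the group in the batch). Decr1, Acot13 and Etfa lay below the ISO mean of the same batch in all 12 PS libraries, whereas Crat and Cpt1a lay below every ISO library in batch 1 and above every ISO library in batch 2.

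The median over the members was higher in ISO than in PS in batch 1. There the median deviation of the 32 members from the batch mean (log2 CPM) was 0.36, 0.59 and 0.71 in the 3 ISO libraries and -0.50 to 0.18 in the 9 PS libraries. Single members did not all follow: 7, 7 and 4 of the 32 lay below the batch mean in ISO replicates 1, 2 and 3. Etfb, for example, deviated by -1.25, 1.48 and -0.02 in these libraries. In batch 2 the median deviation was 0.09, -0.26 and -0.15 in ISO and -0.16, 0.32 and -0.00 in PS, so the ISO and PS libraries were interleaved. ISO replicate 3, which had 17913 genes detected and a GC correlation of -0.149, had the highest of these medians in batch 1. With ISO replicates 1 and 2 left out together, the median of the members was -0.45 at 100 nm and -0.26 at 1 µm, and 1 member was called lower in each, where 2.66% and 4.37% of all genes were.

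**Figure D3:**
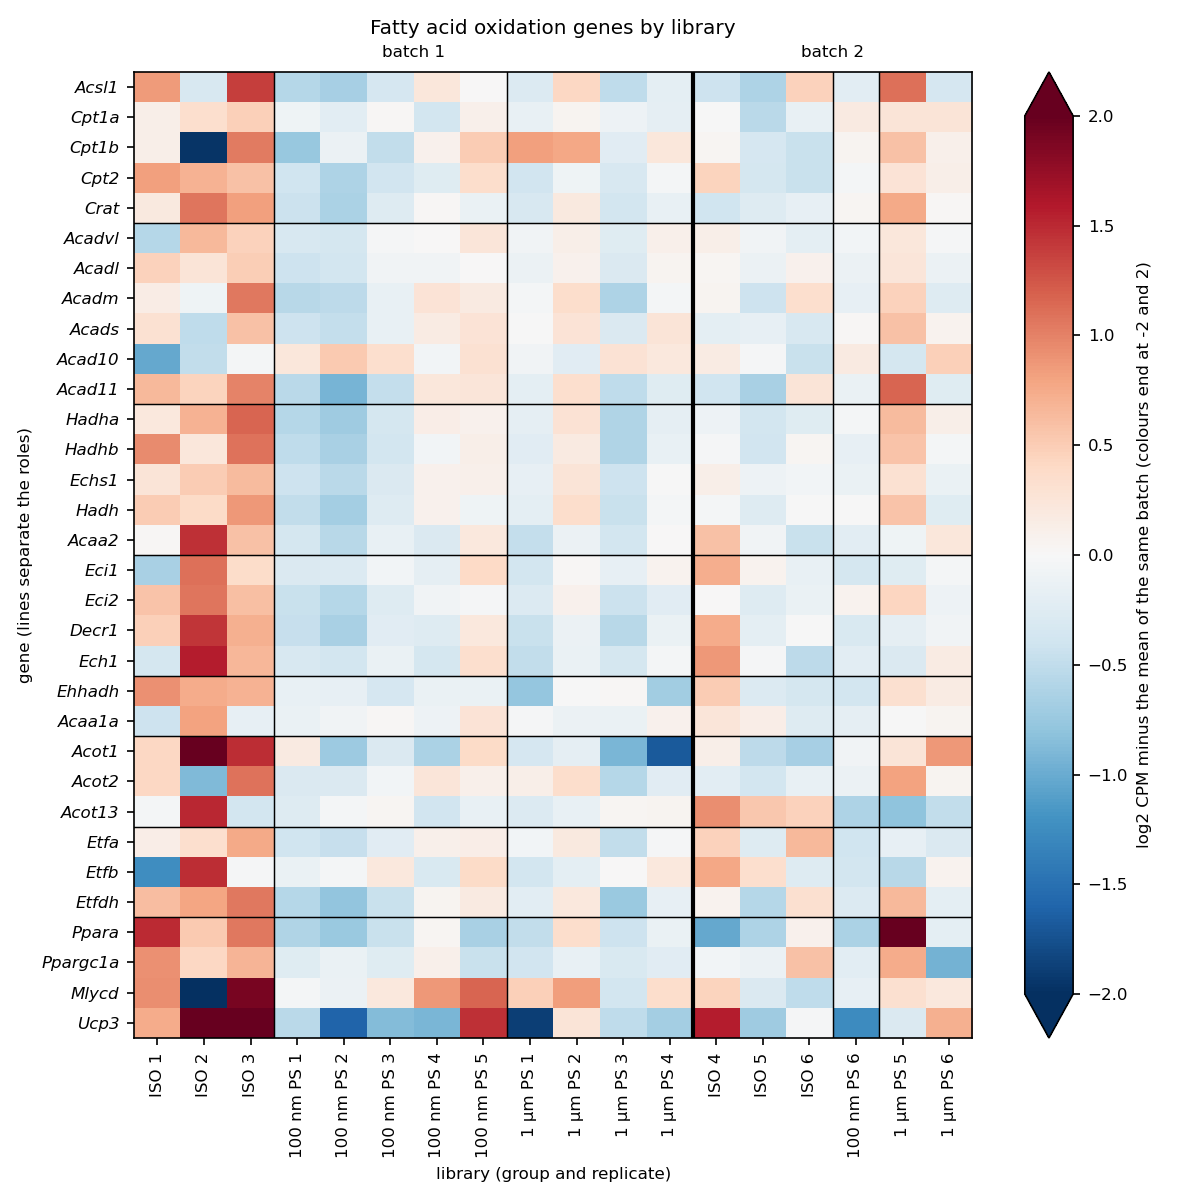
Deviation of log2 CPM from the mean of the same batch for the 32 genes (rows, grouped by role) in the 18 libraries (columns). The 3 ISO libraries of batch 1 are mostly red and the 9 PS libraries beside them mostly blue or pale, and in batch 2 the libraries of ISO+1 µm PS replicate 5 and the ISO group do not follow that order.

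Fitted alone, batch 1 gave 11 members called lower at 100 nm (4.51% of all genes were called lower there) and 7 at 1 µm (2.27% of all genes), and none higher. Cpt2, Eci2, Decr1, Ehhadh, Acot1, Ppara and Ppargc1a were called at both sizes, and Crat, Hadhb, Hadh and Etfdh at 100 nm. In batch 1 every PS library lay below every ISO library for 14 of the 32 members, where 5.69% of all genes did so: these 11 and Cpt1a, Acadl and Acad11. Every PS library lay above every ISO library for none of the members and for 7.74% of all genes. The batch 1 median over the members was -0.87 at 100 nm and -0.76 at 1 µm. Fitted alone, batch 2, which has 1 and 2 PS libraries for the sizes, gave medians of -0.11 and 0.23 and no call by edgeR at either size, with 1 and 5 of 32 members at an unadjusted p under 0.05, where 10% and 21.8% of all genes were. With both PS groups it gave 1 call, Acot13 (-1.29, SE 0.28, adjusted p = 0.0459), where 1.59% of all genes were called lower.

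In batch 2 every PS library lay above every ISO library for Cpt1a, Cpt1b, Crat, Acads, Hadha and Acot2, 6 of 32 where 16.7% of all genes did so, and below for Acot13, 1 of 32 where 16.7% did so. The first of these shares is near the background and the other is below it. The difference of the PS effect between the batches was tested in 1 model over all libraries. By edgeR no member passed and 0.109% of all genes did, while 13 members had an unadjusted p under 0.05, where 15.2% of all genes had. DESeq2 called 7 members, where it called 4.28% of all genes. The 13 were Acsl1, Cpt1a, Cpt2, Crat, Acad11, Hadha, Hadhb, Hadh, Eci2, Ehhadh, Acot1, Etfdh and Ppara, and in each the log2 fold change was higher in batch 2. Without ISO replicate 2 the test called 13 members, 12 of them higher in batch 2 and Acot13 lower, where 16.2% of all genes were called. The values within each batch are therefore given beside the joint ones below.

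**Figure D4:**
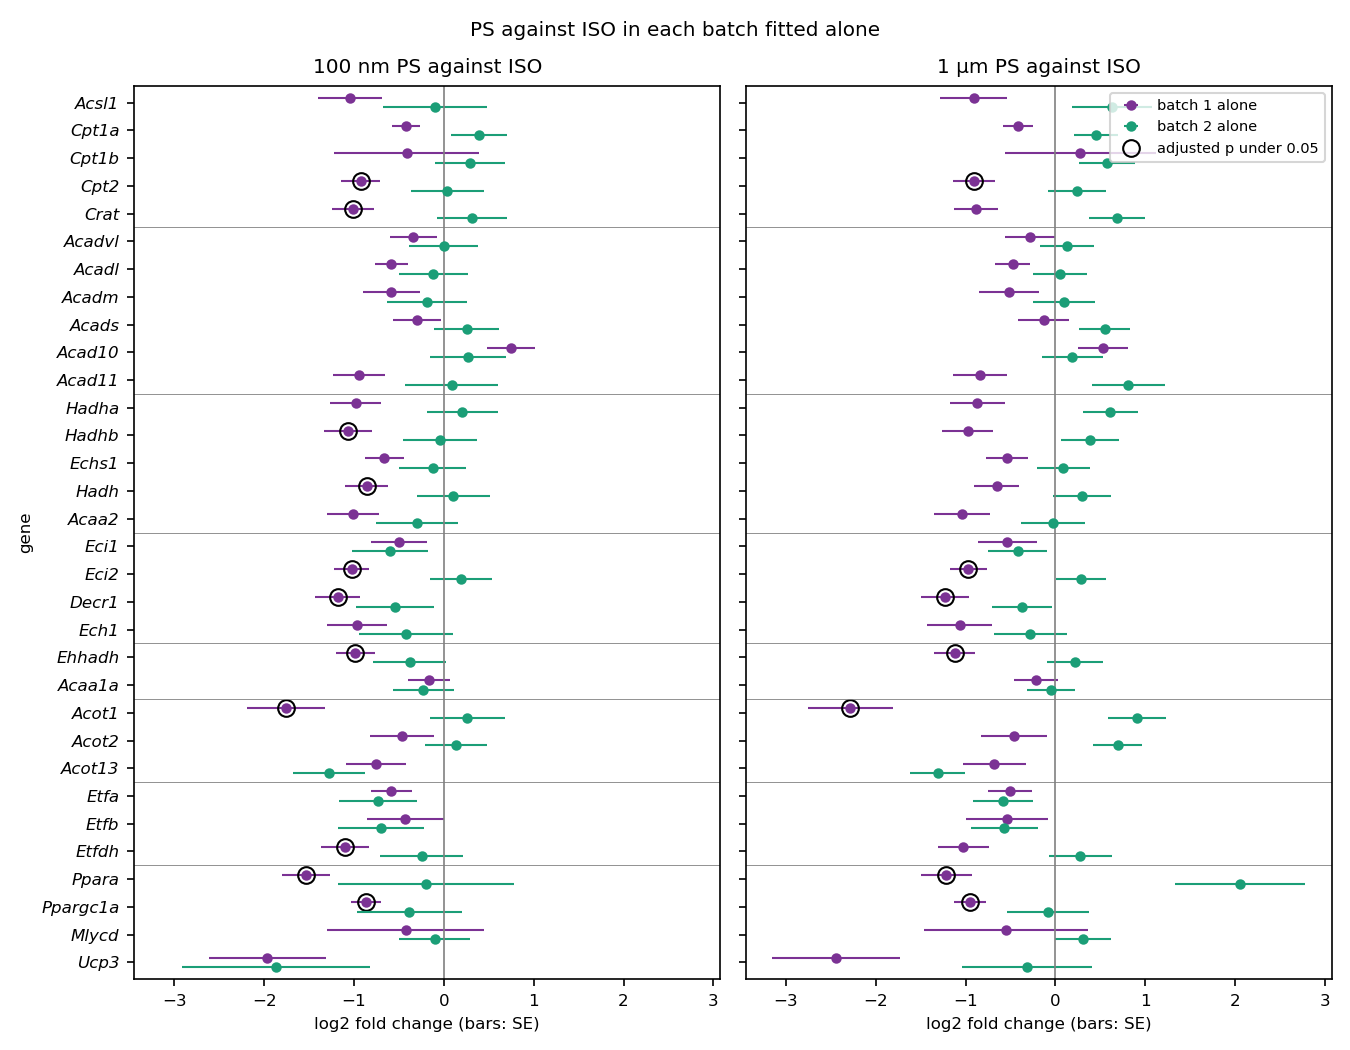
Log2 fold change (points) and SE (bars) of each gene against ISO for 100 nm PS (left) and 1 µm PS (right), from fits to batch 1 alone (purple) and batch 2 alone (green), with a ring where the adjusted p is under 0.05. The purple points have medians of -0.87 and -0.76 with 11 and 7 rings. The green points have medians of -0.11 and 0.23 with no ring. Acot13 and Etfa are among the genes below 0 in both batches.

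Among the genes of activation and the carnitine shuttle, Acsl1, the main long-chain acyl-CoA synthetase of heart, stood at 575, 253 and 831 CPM in ISO of batch 1 and at no more than 422 CPM in the 9 PS libraries there. The groups overlapped only through ISO replicate 2. Batch 2 had 263, 227 and 482 CPM in ISO and 303, 748 and 278 CPM in PS, the highest being ISO+1 µm PS replicate 5. Its log2 fold change was -1.04 (SE 0.35) at 100 nm in batch 1 and -0.10 (SE 0.58) in batch 2, and neither passed.

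Cpt2, the inner membrane transferase, was at 270, 246 and 230 CPM in ISO of batch 1 against 99.2 to 195 CPM in PS, and changed by -0.92 (SE 0.22, adjusted p = 0.0294, edgeR) at 100 nm and -0.90 (SE 0.23, adjusted p = 0.0481) at 1 µm in that batch. In batch 2 the groups overlapped, with 302, 174 and 163 CPM in ISO and 217, 269 and 241 CPM in PS. Crat, the carnitine acetyltransferase that buffers acetyl-CoA, was at 329, 609 and 508 CPM in ISO of batch 1 against 186 to 329 CPM in PS, with ISO replicate 1 just above the highest PS library. In batch 2 the order was the reverse, with 314, 345 and 371 CPM in ISO and 425, 703 and 422 CPM in PS. The log2 fold change at 100 nm was -1.01 (SE 0.23, adjusted p = 0.0286) in batch 1 and 0.31 (SE 0.39, adjusted p = 0.795) in batch 2, and the difference of the PS effect between batches was 1.46 (SE 0.35, adjusted p = 0.0833). Cpt1a was at 47.2, 55.5 and 61.1 CPM in ISO of batch 1 against 33.7 to 47.0 CPM in PS, and at 41.2, 28.4 and 37.1 CPM in ISO of batch 2 against 46.7, 49.4 and 49.4 CPM in PS. It was not called in any of these fits, and its difference between batches was 0.85 (SE 0.24, adjusted p = 0.112). Cpt1b was at 618, 476 and 441 CPM in ISO of batch 2 and at 624, 905 and 645 CPM in PS, above all ISO libraries but not past the threshold.

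Of the 6 acyl-CoA dehydrogenases none was called at either size by edgeR, jointly or in either batch. At an unadjusted p under 0.05 there were 2 at 100 nm and 0 at 1 µm in the joint fit, and DESeq2 called Acadl alone, at 100 nm. The shares of all genes at these thresholds are not given, so these counts are not a result about the enzymes. Acadl, the long-chain enzyme, stood at 836, 730 and 860 CPM in ISO of batch 1 against 456 to 647 CPM in PS, with a change in log2 CPM of -0.59 (SE 0.19, adjusted p = 0.072, edgeR) at 100 nm. The values in batch 2 were 793, 713 and 821 CPM in ISO against 713, 912 and 718 CPM in PS, so the groups overlapped. Acadm, the medium-chain enzyme, ranged from 491 to 1088 CPM in ISO (median 630.0) and from 342 to 904 CPM in PS. Acads, the short-chain enzyme, was at 214, 219 and 197 CPM in ISO of batch 2 and at 250, 367 and 258 CPM in PS, while in batch 1 its groups overlapped. Acad11 had 34.7 to 83.5 CPM in the PS libraries of batch 1, below the 104, 90.4 and 132 CPM of ISO, and 186 CPM in ISO+1 µm PS replicate 5. Acad10 was the only member with a positive value at 100 nm in the joint fit, 0.59 (SE 0.22, adjusted p = 0.0963), from 2.81 to 8.86 CPM in ISO and 5.6 to 8.98 CPM at 100 nm.

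Hadha and Hadhb encode the alpha and beta subunits of the mitochondrial trifunctional protein, which carries out hydration, dehydrogenation and thiolysis of long chains. They are transcribed in opposite directions from start sites 273 bases apart. The 250 bases upstream of Hadhb (GRCm38.p6, chr5:30155003-30155252, + strand, from RefSeq) are shown because they also lie upstream of Hadha. The capitals mark the 228 bases that the promoter windows of both genes share.
Hadhb: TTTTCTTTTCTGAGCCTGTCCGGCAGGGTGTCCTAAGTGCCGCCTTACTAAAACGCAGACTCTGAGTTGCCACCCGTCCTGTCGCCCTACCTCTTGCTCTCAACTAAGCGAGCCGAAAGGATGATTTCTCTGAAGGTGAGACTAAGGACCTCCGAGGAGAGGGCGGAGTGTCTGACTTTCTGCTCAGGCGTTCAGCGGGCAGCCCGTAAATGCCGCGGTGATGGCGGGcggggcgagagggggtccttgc
The ratio of Hadha to Hadhb CPM was 0.934 to 1.12 in the 12 PS libraries and 0.588 to 1.35 in ISO, the extremes being ISO replicates 1 and 2. In batch 1 Hadha stood at 754, 1048 and 1451 CPM in ISO and at 397 to 796 CPM in PS, and Hadhb at 1283, 777 and 1406 CPM in ISO and at 425 to 756 CPM in PS. In batch 2 Hadha stood at 1033, 859 and 939 CPM in ISO and at 1086, 1722 and 1209 CPM in PS, and Hadhb at 1098, 852 and 1148 CPM in ISO and at 1001, 1656 and 1081 CPM in PS. So both genes were high in ISO in batch 1, and in batch 2 the highest library was ISO+1 µm PS replicate 5. The log2 fold change of Hadhb at 100 nm was -1.07 (SE 0.27, adjusted p = 0.0351, edgeR) in batch 1 and -0.04 (SE 0.41, adjusted p = 0.981) in batch 2, and that of Hadha was -0.98 (SE 0.29, adjusted p = 0.0565) and 0.21 (SE 0.39, adjusted p = 0.876).

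Of the other enzymes of the cycle, Hadh, which oxidises medium and short hydroxyacyl-CoA, stood at 457, 421 and 586 CPM in ISO of batch 1 against 202 to 412 CPM in PS, and at 462, 397 and 473 CPM against 476, 706 and 401 CPM in batch 2. It changed by -0.86 (SE 0.24, adjusted p = 0.047, edgeR) at 100 nm in batch 1. Echs1, the short-chain enoyl-CoA hydratase, had 269, 323 and 348 CPM in ISO of batch 1 and 156 to 270.0 CPM in PS, and was not called. Acaa2, the mitochondrial thiolase, was called for both PS groups, at -0.68 (SE 0.22, adjusted p = 0.04). It had 733 to 2091 CPM in ISO (median 1043) and 515 to 1161 CPM in PS (median 690.0), the highest value being ISO replicate 2. Its medians in ISO and PS were 1134 and 622 CPM in batch 1, and 951 and 942 CPM in batch 2. At 1 µm it changed by -1.04 in batch 1 alone and by -0.03 in batch 2 alone. The call was lost in 12 of 18 fits that left out 1 library, among them that without ISO replicate 2.

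Besides Decr1, the enzymes of unsaturated fatty acids include the isomerases Eci1 and Eci2 and the dienoyl isomerase Ech1. Eci2 stood at 161, 230 and 165 CPM in ISO of batch 1, above the 73.7 to 115 CPM of all 9 PS libraries, and at 148, 124 and 134 CPM against 154, 197 and 137 CPM in batch 2. The change in batch 1 was -1.03 (SE 0.19, adjusted p = 0.0188, edgeR) at 100 nm and -0.97 (SE 0.20, adjusted p = 0.0324) at 1 µm, and its PS effect was higher in batch 2 by 1.24 (SE 0.29, adjusted p = 0.0833). Eci1 was at 155, 521 and 314 CPM in ISO of batch 1 and 188 to 318 CPM in PS, which overlapped, with values of -0.50 and -0.60 at 100 nm in the batches and no call. Ech1 had 749 to 2846 CPM in ISO (median 1487) and 682 to 1664 CPM in PS (median 874). Its medians in ISO and PS were 1520 and 767 CPM in batch 1, and 1454 and 1280 CPM in batch 2. At 1 µm Ech1 changed by -1.07 in batch 1 alone and by -0.28 in batch 2 alone. It was called for both PS groups at -0.75 (SE 0.25, adjusted p = 0.0438), and the call was lost in 13 of 18 fits that left out 1 library.

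Ehhadh, the peroxisomal bifunctional enzyme, stood at 16.0, 14.2 and 13.7 CPM in ISO of batch 1 against 4.86 to 8.52 CPM in PS, with no overlap, and at 14.1, 8.17 and 7.77 CPM against 7.65, 12.4 and 11.1 CPM in batch 2. In batch 1 it changed by -0.98 (SE 0.22, adjusted p = 0.0257, edgeR) at 100 nm and -1.12 (SE 0.23, adjusted p = 0.0318) at 1 µm. The call for both PS groups in the joint fit (-0.63, SE 0.20, adjusted p = 0.0393) was lost in 14 of 18 fits that left out 1 library. Acaa1a, the peroxisomal thiolase, ranged from 66.4 to 154 CPM in ISO and from 81 to 110.0 CPM in PS and was not called.

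Of the other thioesterases, which release free fatty acids from acyl-CoA, Acot1, a cytosolic form, stood at 6.93, 26.0 and 14.6 CPM in ISO of batch 1 against 1.54 to 6.85 CPM in PS, and at 9.4, 5.96 and 5.43 CPM in ISO of batch 2 against 8.26, 10.4 and 15.9 CPM in PS. The change in batch 1 was -1.75 (SE 0.44, adjusted p = 0.0346, edgeR) at 100 nm and -2.28 (SE 0.47, adjusted p = 0.0318) at 1 µm. In batch 2 it was 0.26 (SE 0.42) and 0.91 (SE 0.33), neither past the threshold, and the difference of the PS effect was 2.61 (SE 0.61, adjusted p = 0.0833). Acot2, the mitochondrial form, whose sequence is close to that of Acot1, had log2 values of -0.47 at 100 nm and -0.46 at 1 µm in batch 1 and was not called. The ratio of Acot1 to Acot2 was 1.87 in ISO replicate 2 and 0.071 to 0.312 in the others, and the part of read sharing between the pair in this was not tested.

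Etfdh stood at 397, 448 and 541 CPM in ISO of batch 1, above the 151 to 300.0 CPM of all 9 PS libraries. Batch 2 had 347, 223 and 416 CPM in ISO and 276, 520 and 291 CPM in PS, which overlapped. The change at 100 nm was -1.10 (SE 0.27, adjusted p = 0.0328, edgeR) in batch 1 and -0.25 (SE 0.46, adjusted p = 0.872) in batch 2. For Etfa the values of the batches were closer, as given above.

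Of the regulators, Ppara stood in batch 1 at 70.9, 36.2 and 52.7 CPM in ISO and at 15.0 to 32.2 CPM in the 9 PS libraries, with a change in that batch of -1.54 (SE 0.27, adjusted p = 0.0184, edgeR) at 100 nm and -1.22 (SE 0.28, adjusted p = 0.0417) at 1 µm. The value at 1 µm in batch 2, where replicate 5 stood at 25.2 CPM and replicate 6 at 4.12 CPM, was 2.05 (SE 0.73, adjusted p = 0.179). The joint values were -1.0 (SE 0.49, adjusted p = 0.187) at 100 nm and 0.11 (SE 0.51, adjusted p = 0.915) at 1 µm. Ppargc1a stood at 81.9, 57.6 and 69.5 CPM in ISO of batch 1 and at 31.9 to 46.4 CPM in PS, with changes of -0.87 (SE 0.17, adjusted p = 0.0208) and -0.95 (SE 0.18, adjusted p = 0.0298). The ISO libraries of batch 2 had 33.4, 32 and 52.3 CPM, near the PS libraries of batch 1, and the PS libraries there had 30.0, 57.8 and 17.9 CPM. The joint value for both PS groups, -0.61 (SE 0.20, adjusted p = 0.0408), was -0.24 (adjusted p = 0.494) after GC correction, and the call was lost in 13 of 18 fits that left out 1 library. Mlycd was at 161, 96.9 and 83.3 CPM in ISO of batch 2 against 106, 148 and 137 CPM in PS, which overlapped.

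Ucp3, a carrier of the inner mitochondrial membrane that rises with fatty acid supply in muscle, had the largest negative value of the members in the joint fit. It stood at 17.4, 47.3 and 52.3 CPM in ISO of batch 1 and at 7.08, 3.32, 5.61, 5.4 and 28.4 CPM at 100 nm and 2.72, 12.4, 7.21 and 6.37 CPM at 1 µm. Batch 2 had 30.8, 6.26 and 10.2 CPM in ISO and 4.27, 8.39 and 17 CPM in PS. In batch 1 the groups overlapped through ISO+100 nm PS replicate 5, and in batch 2 through the 1 µm libraries. The value was -1.70 (SE 0.59, adjusted p = 0.0719, edgeR) at 100 nm and -1.53 (SE 0.58, adjusted p = 0.103) at 1 µm, neither past the threshold, and -1.61 (SE 0.47, adjusted p = 0.0253) for both PS groups. The summed CPM of the brown adipocyte markers, of which Cox7a1 and Cox8b are also known in heart, had medians of 1955 in ISO, 419 at 100 nm and 472 at 1 µm. These medians pool the batches. In batch 1 the sum was 190, 2385 and 387 CPM in ISO and 367 to 582 CPM in PS. In batch 2 it was 2502, 2545 and 1526 CPM in ISO and 1013, 882 and 923 CPM in PS. Of the 4 brown adipocyte markers tested, 1 was lower with both PS groups. Of 6 skeletal muscle markers tested, 3 were lower. The share of all genes called lower with both PS groups was 10.9%. Among the ISO libraries with the most Ucp3, replicate 2 had 2385 CPM of the brown adipocyte and 473 CPM of the skeletal muscle markers, replicate 4 had 2502 and 118 CPM, and replicate 3, the highest, had 387 and 103 CPM. The part of these cell types in the value was not tested. The call for both PS groups was lost without ISO replicate 2, 3 or 4 (adjusted p up to 0.0709) and passed after GC correction (-1.68, adjusted p = 0.046). The 250 bases upstream of Ucp3 (GRCm38.p6, chr7:100472741-100472990, + strand, from RefSeq) are shown because the promoter window holds 2 copies of the letters AGGTCA, the half-site to which PPAR alpha and related receptors bind, in capitals, at -149 and -44 from the start.
Ucp3: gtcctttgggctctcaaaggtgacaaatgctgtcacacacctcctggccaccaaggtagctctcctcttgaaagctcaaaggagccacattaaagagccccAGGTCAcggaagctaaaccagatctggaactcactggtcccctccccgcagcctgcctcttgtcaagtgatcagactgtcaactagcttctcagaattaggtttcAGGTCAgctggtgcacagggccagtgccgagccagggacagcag
A promoter window, 250 bases before to 50 bases after the start, was present for 27 of the 32 members. AGGTCA on either strand occurred in 5 of the 27 (Acadm, Acadvl, Cpt1a, Echs1 and Ucp3), and in 16.3% of 32851 promoters of all genes. The direct repeat AGGTCANAGGTCA occurred in none of the 27 and in 0.04% of all promoters, and TCAAGGTCA, which contains the half-site, in none and in 0.423%. Ucp3 was the only member with more than 1 half-site in the window.

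When the 2 particle sizes were set against each other, no gene passed. By edgeR 0 of 32 members and 0.0% of all genes passed, and 0 members and 49 of all genes had an unadjusted p under 0.05. DESeq2 called 0 members. These libraries do not show that the sizes act alike: the difference for Acsl1, for example, was 0.41 with an SE of 0.35. The log2 difference of 1 µm against 100 nm PS ran from -0.21 (Acad10) to 1.11 (Ppara, SE 0.53), with a median of 0.16 over the members and 0.01 over all genes, and 30 of 32 were positive. Without ISO+1 µm PS replicate 5 the median was 0.06.

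Of 97 further genes of fatty acid uptake, its control and neighbouring oxidation, in 6 lists, 95 were tested. By edgeR 9 of the 95 were lower at 100 nm, where 5.69% of all genes were, and 6 of the 95 at 1 µm, where 4.5% of all genes were, and none was higher. The count at 1 µm is near the background. The medians were -0.29 and -0.14. Acadsb and Hibch, which act in the breakdown of branched-chain amino acids, Nudt7, a peroxisomal hydrolase of coenzyme A, Gabpa, a factor that drives nuclear genes of mitochondria, Lpl, which frees fatty acids from lipoproteins, and Cd36, which takes them up, were lower at both sizes. Abcd3 and Pex11a, of peroxisomes, and Slc25a20, the carnitine carrier, were lower at 100 nm. Acadsb had 45.0 to 128 CPM (median 92.0) in ISO, 30.1 to 87.0 (median 65.1) at 100 nm and 37.0 to 84.9 (median 63.0) at 1 µm, with log2 fold changes of -0.80 (SE 0.17, adjusted p = 0.0142) and -0.65 (SE 0.16, adjusted p = 0.0267). It was -0.78 in batch 1 and -1.06 in batch 2 at 100 nm. Hibch had 33.9 to 77.4 CPM (median 73.5), 33.9 to 49.7 (median 38.0) and 27.1 to 50.7 (median 42.6), with -0.79 (adjusted p = 0.0206) and -0.74 (adjusted p = 0.0258). Lpl had 3084 to 10549 CPM (median 3920), 1688 to 3706 (median 3161) and 2151 to 3713 (median 2974), with -0.98 (adjusted p = 0.0294) and -0.86 (adjusted p = 0.0442). Slc25a20, which carries acylcarnitine between the transferases described above, had 115 to 171 CPM (median 153), 52.4 to 130.0 (median 77.4) and 64.4 to 196 (median 88.9), with -0.70 (adjusted p = 0.0314) at 100 nm, -0.95 in batch 1 and -0.29 in batch 2. With both PS groups 17 were lower, where 10.9% of all genes were, Pdp1 (-0.61, adjusted p = 0.0198) and Scp2 (-0.39, adjusted p = 0.0314) among them. Another 2 were higher, Acot7 and Lipe, which are named after their values were seen. The share of all genes called higher is not given, so the count of 2 is not a result about the lists. The calls for both PS groups of Acadsb, Hibch, Nudt7, Gabpa, Lpl, Abcd3 and Cd36 passed in all 18 fits that left out 1 library. The calls at a single size were less stable. At 100 nm that of Cd36 and that of Gabpa were lost in 15 of 18 such fits, Pex11a in 7, Lpl in 6, Slc25a20 in 5, Abcd3 in 4, Hibch in 2, and Acadsb and Nudt7 in 1 each. At 1 µm the call of Lpl was lost in 15, Cd36 in 13, Acadsb in 6, Hibch in 5, and Gabpa and Nudt7 in 2 each.

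Other energy pathways give a scale for these shifts. Of 33 nuclear subunits of respiratory complexes I and IV, 8 were lower at 100 nm and 8 at 1 µm, where 5.69% and 4.5% of all genes were. The medians were -0.78 and -0.76, and batch 2 alone gave medians of -0.94 and -0.85. Batch 1 alone gave -0.64 and -0.60. The median deviation of these subunits from the batch mean was -0.85 in ISO replicate 1 and 1.68 in ISO replicate 2. Of 21 genes of the tricarboxylic acid cycle 2 were lower at each size, against the same shares of all genes, with medians of -0.33 and -0.20. Of 20 genes of glucose uptake and glycolysis 1 was higher at 100 nm and none at 1 µm, with medians of 0.02 and 0.17. The share of all genes called higher is not given, so that count is not a result about the list. These lists are given as counts and medians, and no difference between them and the members was tested.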

How the data were processed

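Poly(A) RNA of 18 hearts, 6 a group and 1 library a mouse by the labels' codes, was read from both fragment ends. The deposited table of batch 1 holds raw counts per gene, and that of batch 2 holds estimated counts, of which 19.6% of the nonzero values were not whole and were rounded here. Tools listed in the submitters' processing notes are HISAT2 2.0.5 and fastp, featureCounts 1.5.0-p3, DESeq2 and StringTie 1.3.3b, and the builds are GRCm39 and mm39. The role of each tool, and the counter used for batch 2, are not given in the sources used here. Tables with 46548 and 57010 entries were joined by gene ID pairs (22146 genes) and symbols (13414 genes). The join kept 85.2% to 99.5% of the counts per library. In batch 1, 215 entries without a gene name (0.16% to 0.39% of counts) stayed out.

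The main test was edgeR 4.0.16 (R 4.3.3, limma 3.58.1), a quasi-likelihood fit of group and batch over all libraries with TMM factors, a minimum count of 10 in edgeR's filter, 14 residual degrees of freedom, and Benjamini-Hochberg adjustment over 14623 genes, called under 0.05. CPM deviations used log2 with a prior count of 2. GC correction used a spline of 5 degrees of freedom, with GC known for 99.8% of genes. DESeq2 1.42.0 was an alternative, as were other filters and normalizations, no batch term, each batch alone, a replicate block and left-out libraries. The script was tested on simulated data. No pair of libraries looked like a duplicate. All 32 members are named, and of the 6 pathway lists the called genes, up to the 10 smallest p-values a comparison. The members and all lists were chosen with earlier results of these data known.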

Additional observations from a re-analysis of the deposited data

Results flagged for a closer look

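Of 96 groups of 6 libraries, 4 held a library whose gap to its nearest neighbour, on batch-adjusted log2 CPM, was beyond Dixon's critical value for its share of the group's range, where chance alone gives about 1 in 20. Eci1 was high in ISO+100 nm PS replicate 5, at 318 CPM against 199 to 233 CPM in the other libraries of its group and batch. Ucp3 was high in the same library, at 28.4 CPM against 3.32 to 7.08 CPM. Ppara was high for batch 2 in ISO+1 µm PS replicate 5, at 25.2 CPM, where the other library of its group in that batch had 4.12 CPM. Mlycd was low in ISO replicate 2, with 0 counts (0.0 CPM), where the other ISO libraries had 15.3 to 161 CPM.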

How the results depend on the processing

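The number of members called (3 at 100 nm, 2 at 1 µm, 8 for both PS groups, 0 for the difference of the PS effect between batches) moved with several choices. Without a filter it was 1, 0 and 3, with DESeq2 11 and 4 (7 for the difference between batches), and without a batch term 0, 0 and 2. Batch 1 alone gave 11, 7 and 16 and batch 2 alone 0, 0 and 1, from fewer libraries. With ISO replicates 1 and 2 left out it was 1, 1 and 3 (8 for the difference between batches), and after GC correction 0, 0 and 4, where the correction left 8 of all genes called at 100 nm and 0 at 1 µm. Leaving out 1 library gave 0 to 7 at 100 nm (lowest without ISO+100 nm PS replicate 1, highest without ISO replicate 5), 0 to 5 at 1 µm (without ISO replicates 4 and 1), 2 to 14 for both PS groups (without ISO replicate 3 and without ISO+1 µm PS replicate 5) and 0 to 13 for the difference between batches (highest without ISO replicate 2). Where no construction is named, the cause was not tested. The share of all genes called lower moved as well. It was 5.69% at 100 nm and 4.5% at 1 µm in the main fit, and 4.51% and 2.27% in batch 1 alone. With ISO replicates 1 and 2 left out it was 2.66% and 4.37%. Where no such share is given here or above, the numbers are not a result about the members.

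With the replicate block the number called was 0, 0 and 0, and at 1 µm Ppara was -0.11 and Mlycd 0.0475. Libraries with the same number did not deviate together: the correlation of their residuals had a median of -0.16 (-0.44 to 0.23), with 3 of 18 pairs over 0.1, so the numbers do not pair the libraries.

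Log2 fold changes that turned sign in batch 2 alone were, at 100 nm, Cpt1a 0.40, Cpt1b 0.29, Cpt2 0.0382, Crat 0.31, Acads 0.25, Acad11 0.088, Hadha 0.21, Hadh 0.11, Eci2 0.19, Acot1 0.26 and Acot2 0.14. At 1 µm they were Acsl1 0.63, Cpt1a 0.45, Cpt2 0.24, Crat 0.69, Acadvl 0.13, Acadl 0.0494, Acadm 0.10, Acad11 0.81, Hadha 0.61, Hadhb 0.38, Echs1 0.0881, Hadh 0.30, Eci2 0.28, Ehhadh 0.22, Acot1 0.91, Etfdh 0.28 and Mlycd 0.31. At 1 µm the sign also turned in batch 1 alone for Acads (-0.13), Acot2 (-0.46) and Ppara (-1.22). After GC correction it turned for Acads (-0.30), Acad11 (0.21), Hadhb (0.083) and Acot2 (-0.16), with ISO replicates 1 and 2 left out for Cpt1a (0.0402) and Acot2 (-0.0922), and without a batch term for Ppara (-0.49). Leaving out 1 library gave a range across 0 at 100 nm for Cpt1b (-0.31 to 0.28), Acads (-0.20 to 0.11), Acaa1a (-0.28 to 0.0874), Acot2 (-0.37 to 0.19), Etfb (-0.75 to 0.0046) and Mlycd (-0.55 to 0.37). At 1 µm the same held for Acsl1 (-0.65 to 0.0534), Cpt1a (-0.15 to 0.0625), Acadvl (-0.22 to 0.0346), Acadm (-0.41 to 0.0111), Acad11 (-0.54 to 0.0372), Acaa1a (-0.25 to 0.0745), Acot2 (-0.20 to 0.36), Ppara (-0.76 to 0.39) and Mlycd (-0.44 to 0.35). None of these values was called in the fit over both batches. Cpt1b had 0 to 15 counts in batch 1, too few to show a difference there. Library totals were near those of batch 2, and the cause of the low counts was not tested.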
